A study of Homo sapiens with 12 samples.

Results

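Textbook target genes of the transcription factor p53 were followed through an RNA sequencing series on T47D-MTVL cells. They are CDKN1A, MDM2, CCNG1, FAS, TP53I3, BAX, BBC3, GDF15, SESN1 and ZMAT3, 10 of the 57820 genes counted. They were taken from a list by symbol, each symbol matched 1 gene identifier, and all 10 passed the filter on low counts in each of the 3 comparisons. T47D is a hormone-responsive luminal breast cancer line, and T47D-MTVL carries a luciferase reporter under the MMTV promoter. The series had 12 libraries in 6 groups of 2. Poly(A) RNA came from cells transfected with an siRNA against PADI2 (siPADI2) or a control siRNA (siCtrl), 2 libraries each. It also came from cells labelled as carrying the R1810A form of RNA polymerase II (RNAP2) or wild-type RNAP2 (WT), 2 libraries each. Both RNAP2 forms were HA-tagged and resistant to alpha-amanitin, and these cells had 24 hours of expression and then 12 hours in 6 µg/ml of that toxin, which inhibits unmodified RNAP2. Chromatin-associated RNA came from siPADI2 and siCtrl cells, 2 libraries each. All groups grew in charcoal-treated serum and none received the progestin R5020. PADI2 converts protein arginine to citrulline, and R1810A removes an arginine from the tail of the largest RNAP2 subunit. The comparisons ask how each change alters RNA levels in these cells.

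The p53 protein binds DNA as a tetramer and switches on genes that stop the cell cycle, repair DNA, start apoptosis or adjust metabolism when cells are stressed. Several of its targets feed back on it: MDM2 marks p53 for degradation, so a rise of p53 activity also raises its own inhibitor. Many of these genes are also driven by other transcription factors. No label names a DNA-damaging agent, and RNA levels alone do not measure p53 activity.

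In units of 1e6 counts, poly(A) libraries held 44.32 to 132.76, and chromatin libraries 2.80 and 2.72 (siPADI2) and 7.04 and 6.67 (siCtrl). Levels are counts per 1e6 of the library size after TMM scaling (CPM), which makes libraries of a comparison comparable when most genes do not change or change evenly. PADI2, the siRNA target, stood at 1.83 and 1.88 CPM in siPADI2 against 24.0 and 22.6 CPM in siCtrl poly(A) RNA, and at 8.52 and 14.2 CPM in siPADI2 against 34.9 and 32.5 CPM in siCtrl chromatin RNA. The libraries labelled R1810A likewise held little PADI2, 3.13 and 2.35 CPM, against 48.9 and 50.7 CPM in WT, although their label names no siRNA. The WT label names no siRNA either. Whether the labels are right, and what lowered PADI2, was not tested. These are therefore written as the libraries labelled R1810A, and what is said of their direction carries that doubt. All 9 luminal markers were detected in poly(A) RNA (KRT8 at 1371 to 2597 CPM). Their summed level was lower in siPADI2 (6080 to 6551 CPM) than in siCtrl (10148 to 11300 CPM), and lower in the libraries labelled R1810A (6723 to 7535 CPM) than in WT (10038 to 10574 CPM). The 9 markers did not all move one way: after siPADI2 6 were lower and EPCAM was higher (0.62, edgeR adjusted p = 5.64e-08), and in the libraries labelled R1810A 6 were lower, and EPCAM (0.36, edgeR adjusted p = 0.000349) and CDH1 (0.36, edgeR adjusted p = 0.00555) were higher. The summed markers of other cell types were 67.8 to 68.2 CPM in siPADI2 against 60.5 to 73.7 CPM in siCtrl, and 49.8 to 58.0 CPM in the libraries labelled R1810A against 44.8 to 59.9 CPM in WT, nearly all of it COL1A1, while the leukocyte marker PTPRC did not exceed 0.0401 CPM. The part of these marker differences in the changes below was not tested. In bulk RNA, fewer cells that express a gene and less RNA per cell cannot be told apart.

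POLR2A, which encodes the largest RNAP2 subunit, averaged 309 ± 3.89 CPM in siPADI2 against 445 ± 62.0 CPM in siCtrl, and 362 ± 1.53 CPM in the libraries labelled R1810A against 521 ± 9.99 CPM in WT (SD, n = 2 each). In the RNAP2 experiment, counts per gene do not tell RNA of the introduced RNAP2 from that of the cells' own gene.

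The reference promoters of the 10 genes were searched for the p53 consensus half-site, the 10-base unit to which a p53 dimer binds, and for a full site of 2 half-sites with up to 13 bases between them. The motif is its own reverse complement, so 1 search covers both strands. RefSeq promoters (GRCh38.p14, 250 bases before to 50 after a start site) were found for all 10 genes, in 19 windows. A half-site stood in 2 of the 19, those of SESN1 and FAS, against 2329 of 35116 promoters in all (6.63%). A full site stood in 0 of the 19, against 10 of 35116 (0.0285%). The 2 sites are shown with 5 bases on each side because they are the only matches among the genes, with the half-site in capitals:
SESN1, chr6:109009023-109009042, minus strand: cgtctGGACAAGTCTccaca
FAS, chr10:88991304-88991323, plus strand: ctcctGGACAAGCCCtgaca
The SESN1 half-site starts 49 bases and the FAS half-site 122 bases before the annotated start. Well-known p53 sites of CDKN1A lie further upstream and that of FAS in its first intron, outside these windows, so the absence of a match says only that these letters are not in the window.

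After siPADI2, poly(A) RNA of 5 of the 10 genes fell, that of 1 rose and 4 did not pass the test. The cyclin-dependent kinase inhibitor gene CDKN1A, CCNG1, the death receptor gene FAS and the oxidoreductase gene TP53I3 had the largest falls, 1.66-fold to 4.5-fold. ZMAT3 fell by 0.22 on the log2 scale and the pro-apoptotic BBC3 rose by 0.54. The background was high: of 18720 genes tested, 56.7% were called, 28.8% higher and 27.9% lower. The members' median log2 fold change was −0.08, against 0.01 over all genes tested, and the share called was close to the background. Values are from edgeR's quasi-likelihood test with Benjamini-Hochberg adjustment over all genes tested, here and below, with n = 2 libraries per group.

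CDKN1A (ENSG00000124762.9, hg19 chromosome 6 from 36644305 to 36655116, plus strand) encodes p21, which binds cyclin-dependent kinases and halts the cell cycle. It had 113 and 103 CPM in siPADI2 against 322 and 307 CPM in siCtrl. Both siPADI2 libraries lay below both siCtrl libraries by far more than replicates differed. The change was 2.9-fold (log2 fold change −1.54, SE 0.0857, 95% interval −1.71 to −1.36, edgeR adjusted p = 2.07e-18).

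The product of MDM2 acts on p53 itself, and that of CCNG1 acts on MDM2. MDM2 (ENSG00000135679.17, chromosome 12 from 69201956 to 69239214, plus strand) encodes the ubiquitin ligase that marks p53 for degradation, and part of its exons overlaps another gene on the same strand, so some of its reads could not be assigned. It had 210 and 236 CPM in siPADI2 against 187 and 213 CPM in siCtrl. The ranges overlapped and the change did not pass (0.16, interval −0.02 to 0.33, edgeR adjusted p = 0.12). CCNG1 (ENSG00000113328.14, chromosome 5 from 162864575 to 162873157, plus strand) encodes cyclin G1, which brings the phosphatase PP2A to MDM2. It had 40 and 46.2 CPM in siPADI2 against 173 and 214 CPM in siCtrl, the largest fold difference among the 10 genes. The groups did not overlap and the fall was 4.5-fold (log2 fold change −2.17, SE 0.0999, edgeR adjusted p = 8.13e-16).

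The genes of cell death went different ways. FAS (ENSG00000026103.15, chromosome 10 from 90750414 to 90775542, plus strand) encodes the cell surface receptor through which FAS ligand starts apoptosis, and had 10.6 and 10.2 CPM in siPADI2 against 32.4 and 36.2 CPM in siCtrl. Replicates were close in both groups and the fall was 3.31-fold (log2 fold change −1.73, SE 0.101, edgeR adjusted p = 8.96e-18). TP53I3 (ENSG00000115129.9, chromosome 2 from 24300303 to 24308731, minus strand), a quinone oxidoreductase gene, had 99.1 and 90.3 CPM in siPADI2 against 159 and 156 CPM in siCtrl. It fell 1.66-fold (−0.73, SE 0.083, edgeR adjusted p = 8.95e-10). BAX and BBC3 act at the mitochondrion: BAX forms pores in its outer membrane, and BBC3, also called PUMA, is a BH3-only protein that unleashes BAX. BAX (ENSG00000087088.15, chromosome 19 from 49458072 to 49465055, plus strand) had 25.3 and 22.8 CPM in siPADI2 against 21.9 and 19.5 CPM in siCtrl. Its groups were apart by less than 1 CPM and it did not pass (0.22, interval 0.02 to 0.42, edgeR adjusted p = 0.0573). BBC3 (ENSG00000105327.11, chromosome 19 from 47724081 to 47736023, minus strand) had 10.8 and 9.66 CPM in siPADI2 against 7.63 and 6.55 CPM in siCtrl. It was the only member that rose, 1.46-fold (0.54, SE 0.12, edgeR adjusted p = 0.000185).

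Of the secreted, metabolic and RNA-binding members, GDF15 and SESN1 did not pass the test and ZMAT3 had a small fall. GDF15 (ENSG00000130513.6, chromosome 19 from 18485541 to 18499986, plus strand) encodes a stress-induced hormone of the TGF-beta superfamily and had 31.4 and 24.4 CPM in siPADI2 against 29.3 and 24.5 CPM in siCtrl. Its groups overlapped (0.06, interval −0.17 to 0.3, edgeR adjusted p = 0.67). SESN1 (ENSG00000080546.9, chromosome 6 from 109307640 to 109416022, minus strand), whose product sestrin restrains the growth kinase mTORC1, had 21.6 and 20.5 CPM in siPADI2 against 17.0 and 18.9 CPM in siCtrl. It did not pass (0.22, interval 0.02 to 0.43, edgeR adjusted p = 0.0559). ZMAT3 (ENSG00000172667.6, chromosome 3 from 178735011 to 178790067, minus strand) encodes an RNA-binding zinc finger protein that acts on splicing and mRNA stability. It had 64.0 and 66.8 CPM in siPADI2 against 73.7 and 78.0 CPM in siCtrl. Its fall was 1.16-fold (−0.22, SE 0.0831, edgeR adjusted p = 0.0258). The call was lost with total counts as library sizes (−0.03, adjusted p = 0.759), with no filter on low counts (−0.18, adjusted p = 0.125) and without siCtrl replicate 2 (−0.18, adjusted p = 0.11), siPADI2 replicate 1 (−0.19, adjusted p = 0.194) or siPADI2 replicate 2 (−0.24, adjusted p = 0.0923). A left-out library also decided calls that were just missed: SESN1 (0.31, adjusted p = 0.0308) and MDM2 (0.25, adjusted p = 0.027) passed without siCtrl replicate 2, and BAX (0.30, adjusted p = 0.0203) without siCtrl replicate 1.

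**Figure D1:**
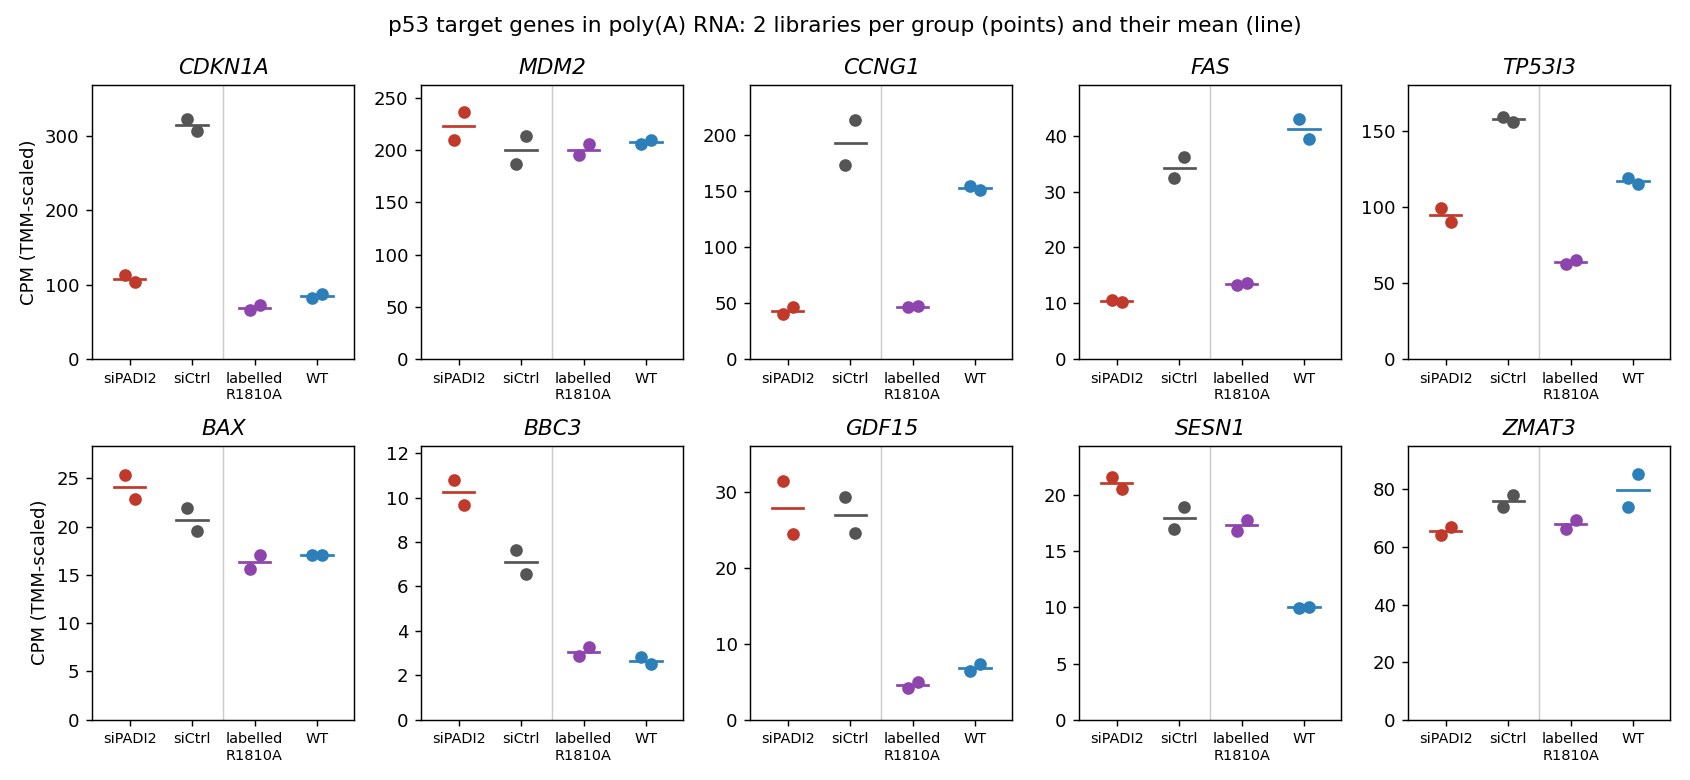
Levels of the 10 p53 target genes in the 8 poly(A) libraries, in TMM-scaled CPM on linear axes from 0. Points are libraries, 2 per group, and lines their mean; siPADI2 stands left of siCtrl and the libraries labelled R1810A left of WT, and the vertical line parts the experiments, which were scaled separately. CCNG1 and FAS are low in siPADI2 and in the libraries labelled R1810A, while CDKN1A is highest in siCtrl, at 322 and 307 CPM.

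In the libraries labelled R1810A, 6 of the 10 genes were lower than in WT, 1 was higher and 3 did not pass. CCNG1 and FAS fell 3.28-fold and 3.06-fold, and SESN1 rose 1.73-fold. CDKN1A fell 1.24-fold only. Of 19202 genes tested, 46.9% were called, 22.6% higher and 24.3% lower. The members' median was −0.27, against −0.02 over all genes tested.

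CDKN1A had 65.3 and 72.2 CPM in the libraries labelled R1810A against 82.3 and 87.6 CPM in WT. The groups were apart, with a small change (log2 fold change −0.30, SE 0.0653, edgeR adjusted p = 0.00182). MDM2 had 195 and 206 CPM in the libraries labelled R1810A against 206 and 210 CPM in WT, and did not pass (−0.05, interval −0.19 to 0.08, edgeR adjusted p = 0.524). CCNG1, the partner of PP2A, had 46.3 and 47.1 CPM in the libraries labelled R1810A against 155 and 151 CPM in WT. Its replicates differed by a few CPM and its groups by over 100 (−1.72, SE 0.0587, edgeR adjusted p = 3.10e-10).

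FAS had 13.2 and 13.6 CPM in the libraries labelled R1810A against 43.0 and 39.4 CPM in WT (log2 fold change −1.62, SE 0.0697, edgeR adjusted p = 1.89e-09). TP53I3 had 62.8 and 65.4 CPM in the libraries labelled R1810A against 119 and 115 CPM in WT, 1.83-fold lower (−0.87, SE 0.0586, edgeR adjusted p = 8.90e-08). Both genes were clear of any overlap. The mitochondrial pair did not pass. BAX had 15.6 and 17.0 CPM in the libraries labelled R1810A against 17.1 CPM in each WT library (−0.07, interval −0.22 to 0.09, edgeR adjusted p = 0.486). BBC3 had 2.86 and 3.28 CPM in the libraries labelled R1810A against 2.81 and 2.52 CPM in WT (0.20, interval −0.08 to 0.49, edgeR adjusted p = 0.223). For both genes the nearest libraries of the groups were within 1 CPM of each other.

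GDF15, the secreted factor, had 4.13 and 4.95 CPM in the libraries labelled R1810A against 6.41 and 7.30 CPM in WT, lower by 1.51-fold (log2 fold change −0.60, SE 0.115, edgeR adjusted p = 0.000935). SESN1 had 16.8 and 17.8 CPM in the libraries labelled R1810A against 9.99 and 10.0 CPM in WT. It was the only member called higher there, and its replicates were within 1 CPM of each other (0.79, SE 0.0746, edgeR adjusted p = 1.88e-06). ZMAT3 had 66.2 and 69.5 CPM in the libraries labelled R1810A against 73.9 and 85.4 CPM in WT (−0.23, SE 0.0731, edgeR adjusted p = 0.0232). That call was lost with DESeq2 (−0.21, adjusted p = 0.0797), with total counts (−0.17, adjusted p = 0.111), in the joint fit (−0.19, adjusted p = 0.0568), and without WT replicate 2 (−0.11, adjusted p = 0.163), R1810A replicate 1 (−0.19, adjusted p = 0.183) or R1810A replicate 2 (−0.27, adjusted p = 0.0905).

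The 2 poly(A) comparisons share no library. CDKN1A, CCNG1, FAS, TP53I3 and ZMAT3 were called in both, and all 5 were lower in both. The ZMAT3 call was lost under several settings in each comparison, as given above. Of 18260 genes tested in both comparisons, 6294 were called in both. Of those 6294, 5737 (91.2%) had the same direction, 2966 lower in both and 2771 higher in both. These directions rest on the R1810A and WT labels: were those exchanged, the share of all genes would be 8.85% (557 genes) and all 5 members would be opposite. The difference between the effects was tested in a joint fit of the 8 libraries, in which 26.1% of 19884 genes were called, 11.8% higher and 14.3% lower. Of the 10 members, 3 were called, all with a more negative effect of siPADI2: CDKN1A, CCNG1 and SESN1.

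For CDKN1A the siPADI2 effect was more negative than the effect in the libraries labelled R1810A (difference of log2 fold changes −1.26, SE 0.103, edgeR adjusted p = 1.20e-06). Its mean level was 108 ± 7.36 CPM in siPADI2 and 314 ± 10.7 CPM in siCtrl, and 68.8 ± 4.91 CPM in the libraries labelled R1810A and 84.9 ± 3.76 CPM in WT (SD, n = 2 each). The 2 experiments were scaled separately and differ in transfection and toxin, so the gap between siCtrl and WT has no test here. For SESN1 the difference was −0.59 (SE 0.115, edgeR adjusted p = 0.00168). For CCNG1 it was −0.48 (SE 0.134, edgeR adjusted p = 0.0208), a call lost with total counts (−0.33, adjusted p = 0.0878) and without siCtrl replicate 2 (−0.31, adjusted p = 0.0668), siPADI2 replicate 1 (−0.38, adjusted p = 0.0711), WT replicate 1 (−0.48, adjusted p = 0.067) or WT replicate 2 (−0.48, adjusted p = 0.0627).

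The other 7 members did not pass the test of the difference. Its interval was narrow for FAS (−0.14, interval −0.37 to 0.09, edgeR adjusted p = 0.389) and TP53I3 (0.11, interval −0.08 to 0.31, edgeR adjusted p = 0.4). GDF15 came nearest to a call (0.63, interval 0.16 to 1.11, edgeR adjusted p = 0.0537). It passed with DESeq2 (0.63, adjusted p = 0.0103), with total counts (0.77, adjusted p = 0.0183), with no filter (0.72, adjusted p = 5.65e-06), and without siPADI2 replicate 2 (0.81, adjusted p = 0.00535), WT replicate 1 (0.75, adjusted p = 0.0408) or R1810A replicate 2 (0.80, adjusted p = 0.00894).

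**Figure D2:**
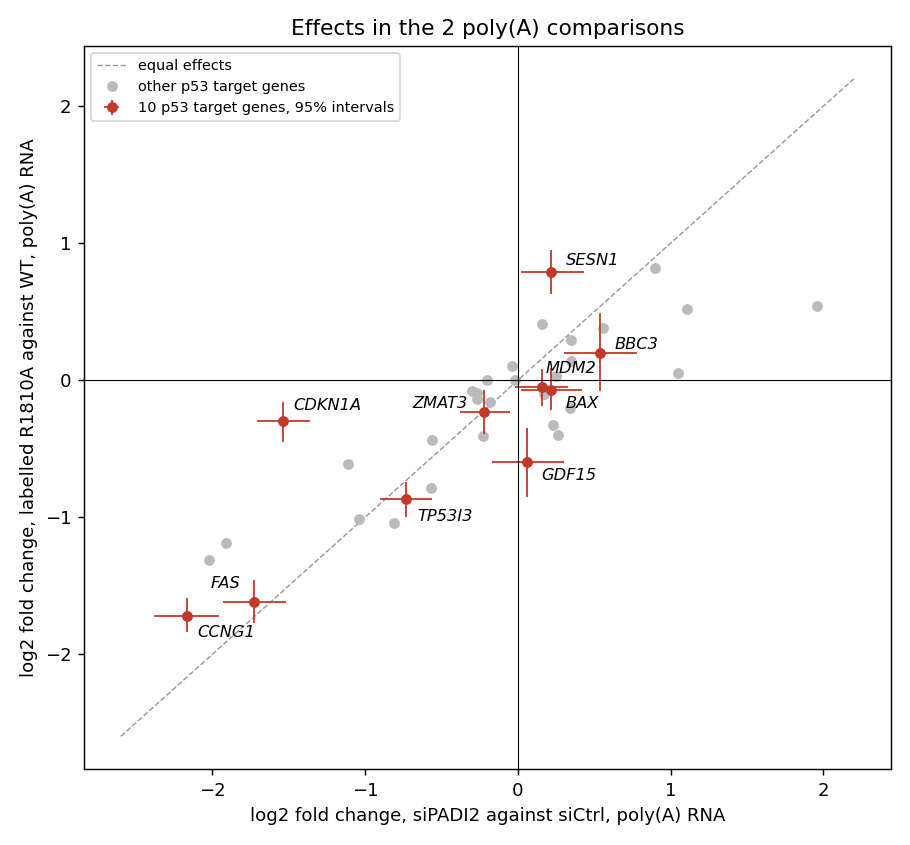
Log2 fold change of siPADI2 against siCtrl (horizontal axis) and of the libraries labelled R1810A against WT (vertical axis) in poly(A) RNA. Red points are the 10 genes with 95% intervals, grey points the other p53 target genes of the fixed list, and the dashed line marks equal effects. CCNG1 at −2.17 and −1.72 and FAS at −1.73 and −1.62 lie low on both axes, CDKN1A lies left of the line at −1.54 and −0.30, and SESN1 above it at 0.22 and 0.79.

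Chromatin-associated RNA is enriched for transcripts still attached to the DNA. After siPADI2, 5 of the 10 genes were lower in this fraction, 0 were higher and 5 did not pass by edgeR, with a members' median log2 fold change of −0.69 against 0.03 over all genes tested. At an unadjusted p under 0.05, and with DESeq2, 0 were higher as well. TP53I3, CDKN1A and CCNG1 had falls of 2.02-fold to 2.58-fold, and BAX and GDF15 were called on small counts. Of 33879 genes tested, 32.4% were called, 12.2% higher and 20.1% lower. The genes tested include 2561 of at least 1000 exonic bases without a count in poly(A) RNA, whose median was 0.22. In this fraction the median was −0.25 over 30 other p53 target genes, −0.43 over the 9 luminal markers and 0.01 over 15 regulators of p53.

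The chromatin libraries also held reads of genes that poly(A) RNA did not contain, a check added after the values were seen. In all, 3881 genes of at least 1000 exonic bases with 0 counts in all 8 poly(A) libraries had medians of 1.51 and 1.82 CPM per kilobase of exon in siPADI2 and 1.67 and 1.70 in siCtrl, with 90th percentiles from 4.62 to 5.41. Of 2561 such genes tested, 396 were higher and 486 lower after siPADI2, with a median log2 fold change of 0.22. PTPRC, the leukocyte marker near 0 in poly(A) RNA, reached 40.0 to 58.9 CPM there. A member's chromatin level near these values cannot be told apart from that of genes without poly(A) RNA, and the source of these reads was not tested. Per kilobase, PADI2 stood at 1.12 times the median of the genes without poly(A) counts in siPADI2 (percentile 53.8). In siCtrl it stood at 3.33 times (percentile 93.9). The summed luminal markers were 1149 to 1640 CPM in siPADI2 and 2369 to 2542 CPM in siCtrl in this fraction, and those of other cell types 221 to 260 CPM in siPADI2 and 288 to 320 CPM in siCtrl. Their part in the changes was not tested.

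CDKN1A had 17.4 and 13.5 CPM in siPADI2 (49 and 38 counts) against 32.9 and 33.3 CPM in siCtrl (203 and 226 counts). The groups lay clearly apart (log2 fold change −1.10, SE 0.232, edgeR adjusted p = 3.73e-05). CCNG1 had 25.6 and 21.3 CPM in siPADI2 against 48.1 and 46.7 CPM in siCtrl (−1.02, SE 0.213, edgeR adjusted p = 3.09e-05). TP53I3 had 18.8 and 22.0 CPM in siPADI2 against 51.2 and 54.0 CPM in siCtrl, the largest chromatin fall of the 10 (−1.37, SE 0.217, edgeR adjusted p = 1.58e-08). Per kilobase, these 3 genes stood at 3.16 to 5.3 times the median of the genes without poly(A) counts in siPADI2 and at 6.58 to 13.5 times in siCtrl. In siPADI2 they stood at percentiles 91.1 (CDKN1A), 96.9 (CCNG1) and 98.3 (TP53I3) of those genes, and in siCtrl at 99.6 to 100. CDKN1A had 5.83 and 4.51 CPM per kilobase in the siPADI2 libraries, where the 90th percentiles of those genes were 4.64 and 5.41. Its siPADI2 level was thus near that of the upper part of those genes.

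BAX had 9.94 and 6.02 CPM in siPADI2 (28 and 17 counts) against 11 and 19.1 CPM in siCtrl (68 and 130 counts). Its siCtrl libraries differed from each other by more than the groups did at their nearest (−0.92, SE 0.305, edgeR adjusted p = 0.0117). GDF15 had 4.26 and 6.73 CPM in siPADI2 (12 and 19 counts) against 9.08 and 14.0 CPM in siCtrl (56 and 95 counts), with log2 fold change −1.07 (SE 0.353, edgeR adjusted p = 0.0115). Neither call held with DESeq2 (adjusted p = 0.189 for BAX and 0.164 for GDF15), with total counts (0.0703 and 0.0603) or without siCtrl replicate 5 (log2 fold change −0.50, adjusted p = 0.431, and −0.76, adjusted p = 0.257). The BAX call also ended without siPADI2 replicate 2 (−0.60, adjusted p = 0.268) and the GDF15 call without siPADI2 replicate 1 (−0.79, adjusted p = 0.186). In siPADI2 both stood below the 90th percentile of the genes without poly(A) counts, at percentiles 75.4 and 68.6 of them.

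FAS did not pass in chromatin RNA, with 11 and 14.2 CPM in siPADI2 against 16.7 and 17.7 CPM in siCtrl (log2 fold change −0.45, interval −0.97 to 0.07, edgeR adjusted p = 0.186). It stood at percentile 80.6 of the genes without poly(A) counts in siPADI2 and 89.9 in siCtrl. MDM2 was the highest member per kilobase, with 219 and 174 CPM in siPADI2 against 260 and 202 CPM in siCtrl, overlapping groups (−0.23, interval −0.73 to 0.26, edgeR adjusted p = 0.504). ZMAT3 had 83.4 and 101 CPM in siPADI2 against 74.6 and 82.1 CPM in siCtrl (0.23, interval −0.18 to 0.65, edgeR adjusted p = 0.411). BBC3, with 8.87 and 13.5 CPM in siPADI2 against 10.5 and 13.5 CPM in siCtrl, and SESN1, with 17.0 and 11.7 CPM in siPADI2 against 11.8 and 13.2 CPM in siCtrl, overlapped between groups. Per kilobase they stood at percentiles from 64.9 to 82.5 of the genes without poly(A) counts.

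**Figure D3:**
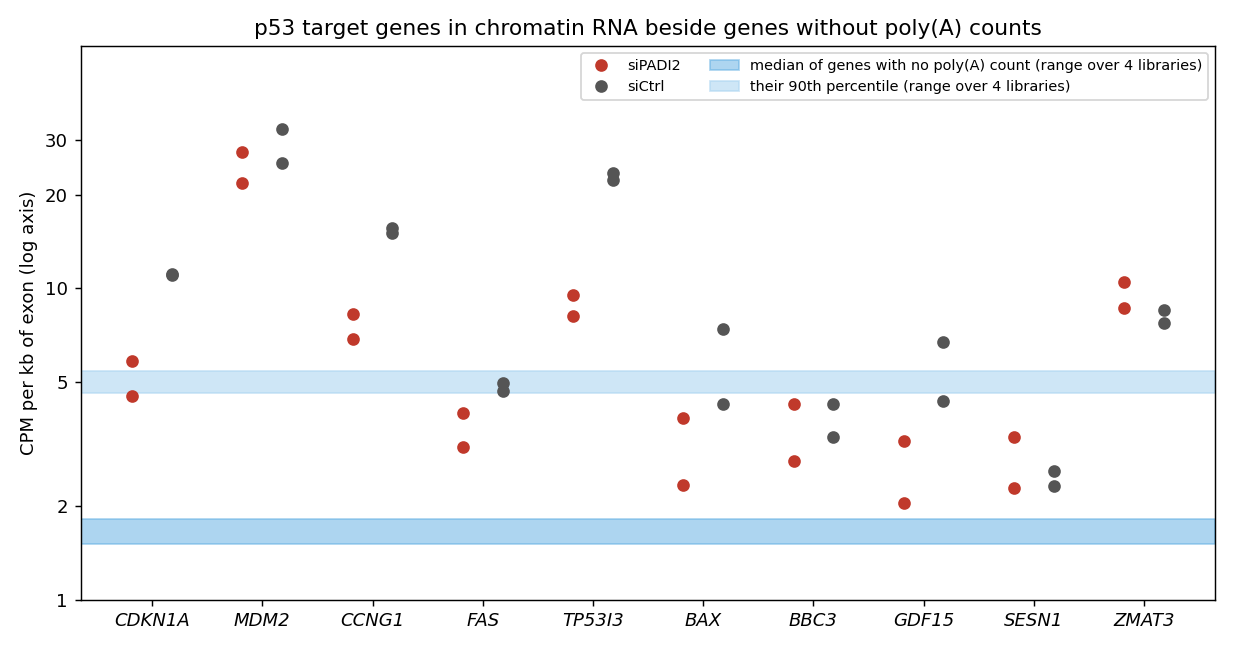
Levels of the 10 genes in chromatin RNA in CPM per kilobase of exon, on a log axis. Points are libraries, siPADI2 left of siCtrl, and the bands give the median and the 90th percentile of the 3881 genes with no poly(A) count, each as a range over the 4 libraries. MDM2 and TP53I3 in siCtrl lie well above both bands, at means of 28.8 and 22.8 CPM per kilobase, while BBC3 and SESN1 lie between or near the bands in all 4 libraries.

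Whether the siPADI2 effect differed between the fractions was tested in a joint fit of the 8 siRNA libraries, in which 8.05% of 44615 genes were called, 1.71% higher and 6.34% lower in chromatin RNA. The median difference of all genes was −0.16 in this fit, 0.54 with DESeq2 and −0.03 when only genes that passed the low-count filter in both fractions entered, so a member's difference reads against that shift. BAX and GDF15 were called, each with a difference of −1.35 (SE 0.428, edgeR adjusted p = 0.0255, and SE 0.452, edgeR adjusted p = 0.0387). GDF15 did not pass with DESeq2 (−0.95, adjusted p = 0.0628). Without siPADI2 poly(A) replicate 1 neither passed (BAX −1.28, adjusted p = 0.136, and GDF15 −1.17, adjusted p = 0.245), nor without siPADI2 poly(A) replicate 2 (−1.39, adjusted p = 0.0887, and −1.49, adjusted p = 0.0758) or siCtrl chromatin replicate 5 (−0.71, adjusted p = 0.161, and −0.81, adjusted p = 0.147). BAX did not pass without siPADI2 chromatin replicate 2 (−0.80, adjusted p = 0.098), nor GDF15 without siPADI2 chromatin replicate 1 (−0.86, adjusted p = 0.107). Without siCtrl poly(A) replicate 2, where the median of all genes was −0.44, MDM2 (−0.96, adjusted p = 0.00795), TP53I3 (−1.09, adjusted p = 0.00193) and BBC3 (−1.0, adjusted p = 0.0227) passed too.

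For CCNG1 and FAS the difference had the other sign, at 0.97 and 1.09, and did not pass in the joint fit (edgeR adjusted p = 0.118 and 0.0838). Both passed with genes that passed the filter in both fractions (1.26, adjusted p = 8.50e-05, and 1.39, adjusted p = 0.000122), an alternative added after the data were seen, and with DESeq2 (1.33, adjusted p = 1.11e-07, and 1.45, adjusted p = 1.55e-08). Both also passed with any of 5 single libraries left out: siCtrl poly(A) replicate 1 (1.33, adjusted p = 0.000114, and 1.39, adjusted p = 0.000189), siCtrl chromatin replicate 1 (1.20, adjusted p = 7.83e-05, and 1.26, adjusted p = 0.000213) or 5 (1.1, adjusted p = 0.000359, and 1.30, adjusted p = 0.000193), and siPADI2 chromatin replicate 1 (0.99, adjusted p = 0.00279, and 1.43, adjusted p = 0.000114) or 2 (1.31, adjusted p = 1.47e-05, and 1.12, adjusted p = 0.0111). ZMAT3 (0.25) passed with the genes of both fractions (0.56, adjusted p = 0.0139), with DESeq2 (0.63, adjusted p = 9.40e-05) and without siPADI2 chromatin replicate 1 (0.56, adjusted p = 0.0477). For FAS the chromatin level is near that of genes without poly(A) counts. PADI2, also near that level in siPADI2, had a difference of the same sign (1.87, SE 0.418, edgeR adjusted p = 0.000346). The part of such reads in these differences was not tested. The ratio of chromatin to poly(A) CPM for FAS was 1.21 in siPADI2 and 0.501 in siCtrl, and for CCNG1 0.543 in siPADI2 and 0.245 in siCtrl. CDKN1A had the lowest such ratio of the 10 genes in both conditions, 0.143 in siPADI2 and 0.105 in siCtrl. The fractions were scaled separately and made with different kits, so a ratio is not the share of a gene's RNA held on chromatin.

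**Figure D4:**
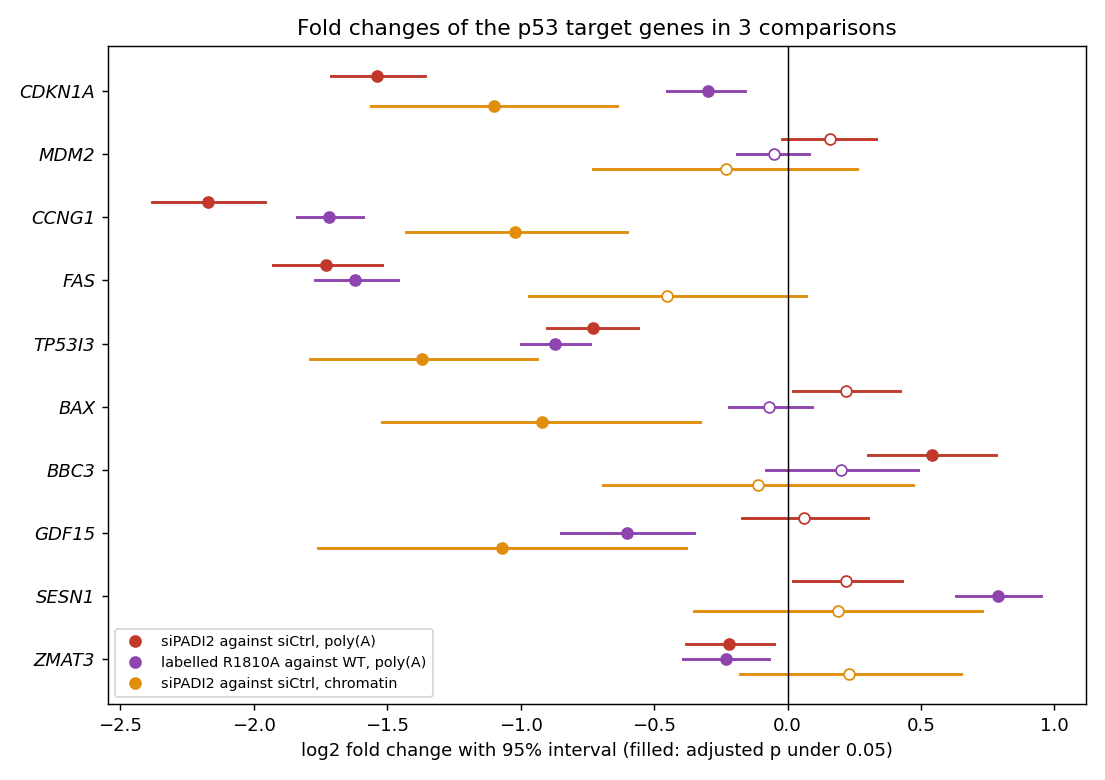
Log2 fold changes of the 10 genes with 95% intervals in the 3 comparisons. Filled points had an adjusted p under 0.05. CDKN1A, CCNG1 and TP53I3 are filled and below 0 in all 3 comparisons; intervals are widest in chromatin RNA, where libraries held 2.72 to 7.04 (in units of 1e6) counts.

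Of 15 genes for regulators of p53, siPADI2 poly(A) RNA had 1 higher and 6 lower, where 28.8% of all genes were higher and 27.9% lower (median log2 fold change −0.16, against 0.01 over all genes). With total counts 4 were higher and 5 lower, and with no filter and in the joint fit 3 were higher. The DNA damage kinase gene ATM rose by 0.86 on the log2 scale (80.3 ± 3.14 CPM in siPADI2 and 44.3 ± 0.494 CPM in siCtrl, SD, n = 2 each, edgeR adjusted p = 2.55e-11). The checkpoint kinase gene CHEK2 fell by 0.87, CDKN2A, whose product ARF restrains MDM2, fell by 0.87, the kinase gene HIPK2 fell by 0.53, and TP63, a p53 relative held at under 1 CPM, fell by 1.4. Without siCtrl replicate 2 or siPADI2 replicate 1, 2 regulators were higher in place of 1. In the libraries labelled R1810A 2 were higher and 7 lower (median −0.23, against −0.02), where 46.9% of all genes were called, with 1 higher when WT replicate 1 was left out. CDKN2A fell by 1.06, CHEK2 by 0.81 and the p53 relative TP73 by 0.56, and the acetyltransferase gene KAT5 rose by 0.28 and the kinase gene ATR by 0.22. ATM was not called there (0.04, edgeR adjusted p = 0.665). In chromatin RNA 1 of the 15 was higher (TP63, 0.71) and 3 were lower (TP73 −2.13, KAT5 −0.98 and the coactivator EP300 −0.65), where 32.4% of all genes were called, with a median of 0.01. The TP63 call ended with DESeq2, in the joint fit, and without siCtrl replicate 1 or siPADI2 replicate 2. In the joint fit 2 regulators were lower, and with total counts 2 were higher. TP63 had only 0.307 to 1.59 CPM in poly(A) RNA, against 34.9 to 70.9 CPM in chromatin RNA.

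Other p53 target genes split in both directions. Of a list of 30, 28 could be tested after siPADI2 in poly(A) RNA (2 had too few counts), and 10 were higher and 12 lower, where 28.8% of all genes were higher and 27.9% lower. Their median log2 fold change was −0.03, against 0.01 over all genes. PERP, a desmosome protein gene, had 231 ± 16.0 CPM in siPADI2 and 59.2 ± 4.11 CPM in siCtrl (SD, n = 2 each, 1.96, edgeR adjusted p = 2.25e-21). The BH3-only gene PMAIP1, also called NOXA, rose by 1.11, the DNA repair gene XPC by 1.05 and SUSD6 by 0.90. THBS1, which encodes the matrix protein thrombospondin, had 62.4 ± 0.481 CPM in siPADI2 and 235 ± 1.95 CPM in siCtrl (−1.91, edgeR adjusted p = 1.32e-21). The membrane protein gene NINJ1 fell by 1.11, and PLK3 (−1.04) and IGFBP3 (−2.02) fell at levels under 1 CPM. The number higher was 6 without siPADI2 replicate 1, and the number lower was 7 without siCtrl replicate 2, 7 without siPADI2 replicate 1 and 7 with total counts.

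In the libraries labelled R1810A 5 of 28 of these genes were higher and 11 lower (22.6% and 24.3% of all genes), with a median of −0.09. SUSD6 (0.82), PERP (0.54), PMAIP1 (0.52) and the apoptosome gene APAF1 (0.38) led the rises. IGFBP3 (−1.31), THBS1 (−1.19), the anti-apoptotic BCL2L1 (−1.04) and PLK3 (−1.01) led the falls. Of the 16 called in both poly(A) comparisons, 13 had the same direction (81.2%, against 91.2% of all genes called in both). With the R1810A and WT labels exchanged these shares would be 18.8% (3 genes) and 8.85%. The 3 that did not were SESN2, TNFRSF10B and DDB2, all higher in siPADI2 than in siCtrl and lower in the libraries labelled R1810A than in WT. SESN2, the sister gene of SESN1, was 0.23 after siPADI2 and −0.33 in the libraries labelled R1810A. In chromatin RNA 2 of 30 were higher (EDA2R 1.45 and DRAM1 0.67) and 5 lower, with a median of −0.25. The DNA repair gene DDB2 (−1.12), SESN2 (−0.98), BCL2L1 (−0.93) and NINJ1 (−0.76) led the falls. Of all genes 12.2% were higher and 20.1% lower. EDA2R was low, at 4.26 ± 0.00534 CPM in siPADI2 and 1.53 ± 0.332 CPM in siCtrl chromatin RNA (SD, n = 2 each). In the joint fit 0 were higher and 3 lower. With total counts 3 were higher and 3 lower, and with DESeq2 3 were lower. Leaving out siCtrl replicate 5 or siPADI2 replicate 1 took the number higher to 0 (0 with DESeq2), and leaving out siCtrl replicate 1 or siPADI2 replicate 2 to 1. The number lower was 3 when either siCtrl library was left out.

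The 7-base words ATCCACA and TACCATG were the words most tied to lower RNA when all 3′ UTRs were scanned in an earlier analysis of the siPADI2 poly(A) comparison, so their presence is a description only. In the longest annotated 3′ UTR of each gene (GENCODE 29, GRCh38, transcript strand only), 3 of the 10 members hold either word, against 3141 of 19133 genes (16.4%). They are shown because they are the members' only matches, with the word in capitals:
FAS, ATCCACA: tacaaatgtctATCCACAggctaacccca
MDM2, TACCATG: atcatattgtcTACCATGtagccagcttt
ZMAT3, ATCCACA: gaattgtaattATCCACActtcctccagc
ZMAT3, TACCATG: acccacagtggTACCATGagatgtcaaaa
CDKN1A, CCNG1 and TP53I3, which fell after siPADI2, hold neither word there. The 3′ UTRs searched had 10837 bases for MDM2, 7794 for ZMAT3 and 1335 for FAS. Those of members without a word had from 146 (TP53I3) to 1539 (CDKN1A). A longer 3′ UTR has more room for a word, and the shares were not adjusted for length. FAS, which holds 1, fell by 1.73 after siPADI2 and by 1.62 in the libraries labelled R1810A. MDM2 was not called in either comparison.

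Per kilobase of exon, the order of the members differed between groups. In siPADI2 poly(A) RNA TP53I3 was highest (41.0 CPM per kilobase) and FAS lowest (2.91), and in siCtrl CDKN1A was highest (105) and BBC3 lowest (2.23). In the libraries labelled R1810A TP53I3 (27.7) and BBC3 (0.966) were the extremes, as in WT (50.7 and 0.839). MDM2 led in chromatin RNA, at 24.5 in siPADI2 and 28.8 in siCtrl. The siRNA and RNAP2 experiments in poly(A) RNA were scaled separately and differ in transfection and toxin, so order and overlap across them were not tested. Across the 4 poly(A) groups, the libraries of neighbouring groups in the order of mean CPM did not overlap for CDKN1A, CCNG1, FAS, TP53I3, BAX and BBC3. Neighbours overlapped for MDM2 (siPADI2 with WT, and the libraries labelled R1810A with siCtrl), GDF15 (siPADI2 with siCtrl), SESN1 (the libraries labelled R1810A with siCtrl) and ZMAT3 (the libraries labelled R1810A with siPADI2, and WT with siCtrl). Over the 8 poly(A) libraries the genes with the pattern most like that of CDKN1A, among 18260, were SUSD3, SOCS3, CACNB4, PEDS1 and CPT1A, with Pearson's r from 0.9928 to 0.9946 on log2(CPM + 1), a description over libraries that form 4 groups of 2. These r values also take in the untested gap between the experiments, which were scaled separately.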

How the data were processed

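RNA of 12 libraries was measured as counts per gene. The deposited tables hold unnormalized fragment counts by gene, made by the authors with featureCounts 1.5.1 (poly(A) RNA) or 1.4.6-p2 (chromatin RNA) on GENCODE 19 genes and hg19, strand-specific and over exons, per the file headers. Trimmomatic and STAR were used before, per the submitters' processing notes. Multi-mapping reads and reads shared by overlapping genes were not counted, per the file headers. Poly(A) libraries came from a TruSeq Stranded mRNA kit and chromatin libraries from the TruSeq kit for stranded total RNA with Ribo-Zero depletion, as the labels' protocols state. Symbols were matched by stable identifier for 51996 of 57820 genes, and 0 columns were left unmapped.

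The 4 libraries of a comparison were fitted alone with edgeR 4.0.16 in R 4.3.3 (TMM, filterByExpr, robust quasi-likelihood F test, Benjamini-Hochberg over all genes tested, threshold 0.05). Differences between effects were contrasts in joint fits of 8 libraries. A standard error is the log2 fold change over the square root of F. Alternatives were DESeq2 1.42.0, total counts as library sizes, no filter, a joint fit, a replicate block and leaving out each library, where a group left with 1 library is assumed to vary like the others. The procedure was run on simulated counts in which few genes changed and all genes varied alike. These data differ in both respects, so that run does not measure the error rate here. Total counts per library set the precision, and values on few counts carry it beside them. The labels do not say whether replicates were separate cultures, so p-values measure only how far these libraries vary, which could be technical variation. No pair of replicates agreed within sampling noise (chi-square per degree of freedom 3.55 to 91.7).

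The 10 members, the 15 regulators, the 30 other targets, the markers and the alternatives were chosen with earlier results of these data known. From the regulators and other targets, up to 4 genes per direction and comparison with the largest called log2 fold change are named, except for an item that is not reported here. SESN2 in poly(A) RNA, TNFRSF10B, DDB2 in poly(A) RNA and ATM in the libraries labelled R1810A were named outside that rule after their values were seen. Sequences came from RefSeq promoters (GRCh38.p14) and GENCODE 29 transcripts, and hg19 coordinates were not converted.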

Additional observations from a re-analysis of the deposited data

Results flagged for a closer look

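The siPADI2 effect and the effect in the libraries labelled R1810A differed for 3 of the 10 genes by the interaction test in poly(A) RNA (edgeR, 8 libraries): CDKN1A (−1.26), SESN1 (−0.59) and CCNG1 (−0.48). Of all 19884 genes tested, 26.1% were called, so the members' share was close to the background. The CCNG1 call was lost under several settings given above. For CDKN1A and CCNG1 both effects were falls, and for SESN1 the R1810A effect was a called rise of 0.79 and the siPADI2 effect 0.22.

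The siPADI2 effect differed between chromatin and poly(A) RNA for BAX (−1.35) and GDF15 (−1.35), both lower in chromatin RNA and not called in poly(A) RNA. The all-gene median of that test was −0.16, and the chromatin counts of these genes in siPADI2 ran from 12 to 28. Of all 44615 genes tested, 8.05% were called. Both members' calls were lost under several settings given above.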

How the results depend on the processing

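Of 500 values of the 10 genes under other settings, 399 kept direction and side of the threshold, 33 lost a call, 49 gained one and 19 changed sign, the last all in values that did not pass. The calls of CDKN1A, CCNG1, FAS, TP53I3 and BBC3 after siPADI2 in poly(A) RNA held under every setting run, as did those of CDKN1A, CCNG1, FAS, TP53I3, GDF15 and SESN1 in the libraries labelled R1810A and of CDKN1A, CCNG1 and TP53I3 in chromatin RNA. The causes of the changes below were not tested.

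In siPADI2 poly(A) RNA 1 member was higher, and 4 with total counts, 3 without a filter, 3 in the joint fit, 4 with the replicate block and 1 to 3 with a library left out. With total counts the median of all genes was 0.19 in place of 0.01, and 67% of calls were higher in place of 50.8% (7398 higher and 3636 lower). MDM2, BAX and SESN1 then passed (0.34, 0.40 and 0.41). In chromatin RNA 4140 genes were higher and 6822 lower, 537 and 3169 with DESeq2, 2085 higher in the joint fit, and 1168 to 2350 higher and 3678 to 5641 lower with a library left out (lowest without siCtrl replicate 5). Of these calls 37.8% were higher, 14.5% with DESeq2, 27.6% in the joint fit and 27.7% without a filter. The members lower were 5, 3 with DESeq2, 3 with total counts and 3 to 5 with a library left out.

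For the siPADI2 minus R1810A difference 2343 genes were higher and 2853 lower, 3870 and 1822 with total counts and 3684 higher with the replicate block. With a library left out 1791 to 2320 were higher and 1940 to 2816 lower. Of these calls 45.1% were higher, 68% with total counts and 59.4% without a filter. Members higher were 0 (edgeR), 2 at an unadjusted p under 0.05, 1 with DESeq2, 3 with total counts, 1 without a filter, 3 with the replicate block and 0 to 1 with a library left out. For the chromatin minus poly(A) difference 763 genes were higher and 2829 lower, 3511 higher with DESeq2, 1666 with total counts, 2792 with genes passing the filter in both fractions, and 420 to 2266 higher and 1783 to 6176 lower with a library left out (most lower without siCtrl poly(A) replicate 2). Of these calls 21.2% were higher, 51.4% with DESeq2 and 43.6% with genes passing in both fractions. Members higher were 0 (edgeR), 2 at an unadjusted p under 0.05, 4 with DESeq2, 2 with total counts, 3 with genes passing in both fractions and 0 to 3 with a library left out. Members lower were 2, 1 with DESeq2 and 0 to 5 with a library left out.

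Sign changes were GDF15 after siPADI2 in poly(A) RNA (−0.13 to −0.07 with a library left out), MDM2 in the libraries labelled R1810A (0.01 with total counts), and, in chromatin RNA with a library left out, BBC3 (−0.44 to 0.15, positive at 0.04 and 0.15) and SESN1 (−0.11 to 0.45). In the siPADI2 minus R1810A difference they were FAS (0.01 with total counts) and ZMAT3 (0.14 with total counts, 0.08 without a filter, 0.02, 0.04, 0.06 and 0.11 with a library left out). In the chromatin minus poly(A) difference they were SESN1 (0.14 with DESeq2, 0.08 with genes passing in both fractions, −0.58 to 0.25 with a library left out, positive at 0.03, 0.08 and 0.25) and ZMAT3 (−0.06 to 0.56 with a library left out).

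Replicates of a number share only that number in the labels. Their deviations from the group means correlated at 0.24 (siPADI2) and 0.742 (R1810A) in poly(A) RNA, with 2 pairs each. With the replicate block MDM2, BAX and SESN1 passed after siPADI2 (adjusted p = 0.0377, 0.016 and 0.0173), 3 regulators were higher in place of 1, and GDF15 passed in the siPADI2 minus R1810A difference (0.62, adjusted p = 0.00014). The chromatin groups share 1 number, so no block could be fitted there. Depth limits chromatin values: 6 members had 12 to 49 counts in the siPADI2 libraries.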
